A study of Mus musculus with 18 samples.

Results

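The genes described here encode the plasma clotting factors, their inhibitors and receptors, and the enzymes and inhibitors that dissolve clots. They were chosen by name, as 33 mouse symbols from factor XII to the thrombin receptor F2r, and 32 of them were among the 47729 gene rows of the table. The identifier of Klkb1, which encodes plasma prekallikrein, was not among the rows, so Klkb1 was not analysed here. Liver RNA came from mice after ischemia-reperfusion (IR), in which the blood supply of the liver is interrupted and then restored, and from mice after sham surgery. Each surgery had 9 livers, made up of 3 Il22-/- livers, 3 Il22bp-/- livers and 3 wild-type livers. Il22bp is the soluble binding protein of the cytokine IL-22. The sources used here do not state strain, age, sex, or how long ischemia and reperfusion lasted. The column headers of the table hold IR or W and a number, and no genotype, so that genotypes were mixed within both groups. W was read as sham surgery by elimination, because 9 columns are headed IR and the other 9 samples of the series are sham, which assumes that every column is a sample of this series.

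Blood clots through a chain of proteases that ends with thrombin, which cuts fibrinogen into fibrin. Hepatocytes secrete fibrinogen and most of the circulating factors and inhibitors, whereas factor VIII, thrombomodulin and von Willebrand factor come mainly from endothelial cells. Fibrinogen is also a classical acute phase protein, whose synthesis the liver raises in response to IL-6. Plasmin, made from plasminogen by tissue or urokinase plasminogen activators, dissolves fibrin again.

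The libraries held between 10176617 and 12763837 reads as recovered from the deposited values. Of 12686 genes tested, 4860 were called higher and 4781 lower in IR livers. IR8 and W8 correlated least with the rest of their groups (median r across genes 0.932 and 0.974). Over the 32 members, 13 rose and 13 fell in IR livers, and 6 were not called, while without IR8 and W8 the counts were also 13 higher and 13 lower, with F11 called lower and Cpb2 not called. The main counts come to 40.6% in each direction, against 38.3% of all genes tested called higher and 37.7% called lower. The share of members called was therefore close to the background. The median log2 fold change was 0.05 over the members and 0.02 over all genes tested. Groups did not overlap for 10 members that were higher and 6 that were lower in IR livers, against 19.9% and 20.3% of all genes tested. By the same call and a log2 fold change of at least 0.58 in size, 11 members were higher and 9 lower, where 27.8% and 28.0% of all genes tested were. Genotypes could not be compared, and their part in the spread within a group was not tested. The labels do not say whether the samples of a group came from separate animals, so the p-values measure the spread between these samples.

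**Figure D1:**
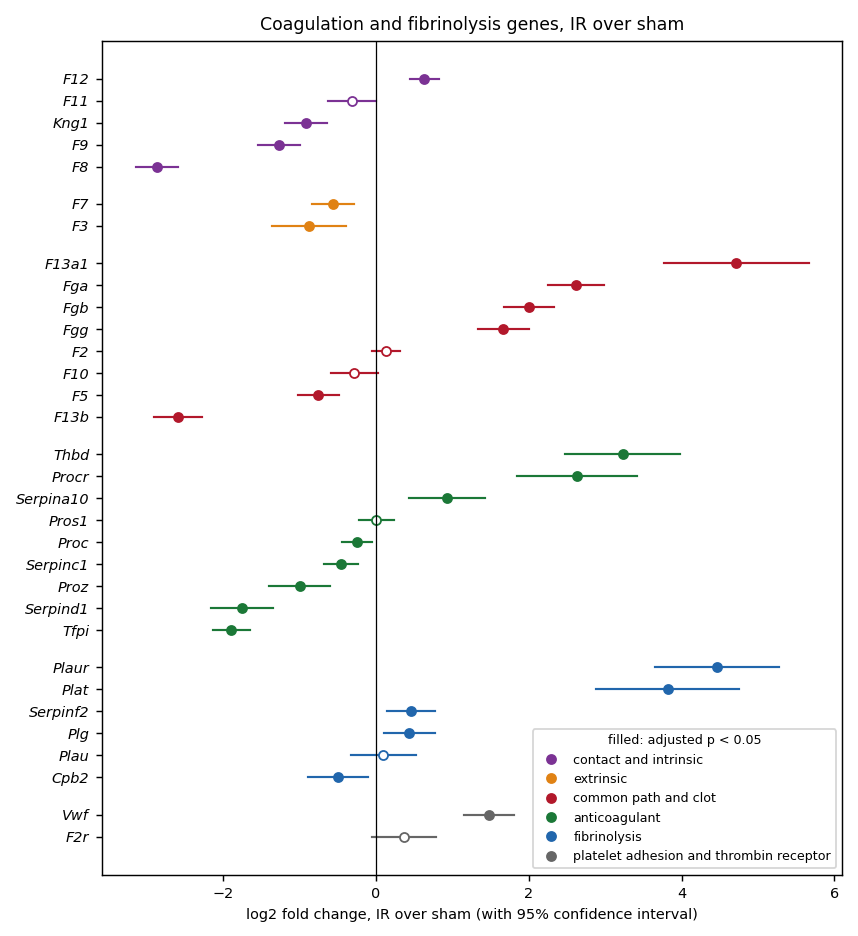
Log2 fold change of each of the 32 members, IR over sham, on the x axis, with members down the page by role and the 95% confidence interval as a bar. Filled points passed an adjusted p of 0.05 in limma. F13a1 stands at the high end with 4.72 and F8 at the low end with -2.87. With a sham mean of 3.91, F13a1 was tested only through its IR values.

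The 3 fibrinogen chains had the highest median normalized counts of all members in both groups before correction for length, and all 3 rose in IR livers. Fga encodes the alpha chain, and its normalized count ran from 202750 over a median of 290302 to 466905 in IR livers, against 29392, 49001 and 58734 in sham livers. The groups did not overlap, and the log2 fold change was 2.62 ± 0.18 (SE, n = 9 each; limma adjusted p = 5.98e-11). Fgb, the beta chain, had a lowest, median and highest value of 165180, 239950 and 344751 in IR livers, against 39788, 59950 and 69382 in sham livers, a log2 fold change of 2.00 ± 0.16 (limma adjusted p = 6.05e-10). Fgg, the gamma chain, had 114387, 172078 and 273842 in IR livers and 44027, 56767 and 65173 in sham livers, a log2 fold change of 1.66 ± 0.16 (limma adjusted p = 9.76e-09). The 3 chains together took between 5.25% and 9.39% of all normalized counts in the IR libraries, with a median of 6.24%, against 0.900% to 1.56% with a median of 1.34% in the sham libraries. The other 29 members together took 1.10% to 1.54% of normalized counts in IR libraries and 1.04% to 1.41% in sham libraries. Albumin, the main secreted protein of hepatocytes, took 2.86% to 7.48% in IR libraries and 12.9% to 15.9% in sham libraries. Ranked by normalized count per kilobase of transcript among 21697 protein-coding rows, Fga was at rank 8 in IR livers and 45 in sham livers, Fgg at rank 9 in IR livers and 24 in sham livers, and Fgb at rank 14 in IR livers and 53 in sham livers. On this per-length scale Kng1, at rank 59 in IR livers and 39 in sham livers, stood above Fga and Fgb in sham livers.

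**Figure D2:**
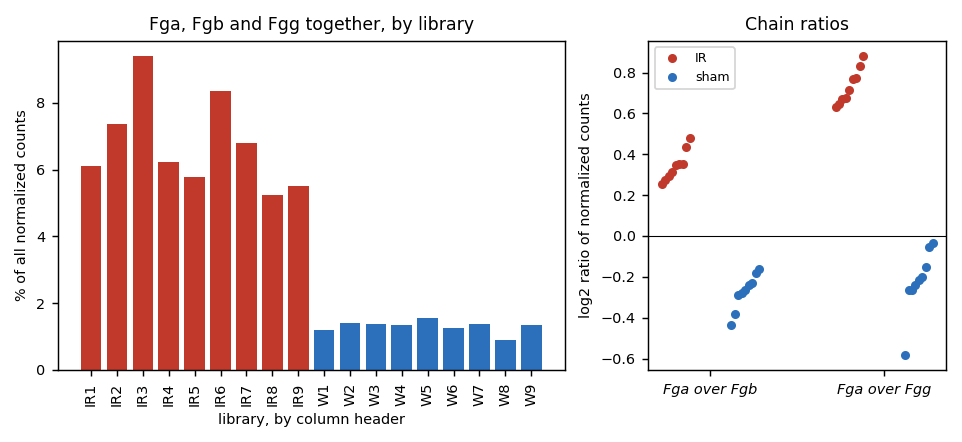
Left, Fga, Fgb and Fgg together as a percentage of all normalized counts in each library, IR libraries left of sham libraries. Right, log2 ratio of the normalized counts of Fga over Fgb and of Fga over Fgg, 1 point per library, sorted within each group. The IR libraries lie between 5.25% and 9.39% and the sham libraries between 0.900% and 1.56%, and neither ratio overlaps between the surgeries.

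The chains did not rise by equal amounts. The log2 ratio of Fga over Fgb was 0.35 ± 0.07 in IR livers and -0.27 ± 0.09 in sham livers (SD, n = 9 each), a difference of 0.62 (two-sided exact permutation test, adjusted p = 5.14e-05 over 10 gene pairs). For Fga over Fgg it was 0.73 ± 0.09 in IR livers and -0.22 ± 0.16 in sham livers, a difference of 0.95 (exact permutation test, adjusted p = 5.14e-05). The unadjusted p of both, 4.11e-05, is the smallest that the permutations can give. A ratio within a library does not depend on how libraries were scaled. Across the 9 IR livers the chains varied together, with Pearson's r of 0.99 for Fga and Fgb, 0.976 for Fga and Fgg and 0.987 for Fgb and Fgg (exact permutation p = 1.1e-05, 3.03e-05 and 2.76e-06). Spearman's rho was 0.967, 0.967 and 1 for these pairs (exact permutation p = 0.000165, 0.000165 and 5.51e-06). Among the sham livers r was 0.965, 0.858 and 0.907 for the same pairs (exact permutation p = 0.000229, 0.000692 and 0.000223), and rho was 0.917, 0.85 and 0.85 (exact permutation p = 0.00131, 0.00607 and 0.00607). Adjusted over the 6 relations, the largest p was 0.000692 for r and 0.00607 for rho. Without the 2 libraries farthest from the median of the first gene, r stayed between 0.951 and 0.978 in IR livers. In sham livers it was 0.757 and 0.819 for Fga with Fgb and Fgb with Fgg, and 0.691 for Fga with Fgg (exact permutation p = 0.0486, 0.0169 and 0.0782). For these sham pairs the libraries left out were W5 and W8, and with 7 libraries Fga with Fgg no longer passed 0.05. Libraries share their scaling, and genotypes are mixed within them.

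The 3 chain genes are neighbours in GRCm38, on chromosome 3 from 83007724 to 83049863, with no other protein-coding gene of the table between them. Fgg and Fga lie on the plus strand and Fgb on the minus strand. Their 250 bases before the RefSeq start site (GRCm38.p6) are shown because the 3 genes moved together. Capitals mark CTGGGAA, the core of IL-6 response elements of acute phase genes, and GTTAAT, part of the palindrome bound by the hepatocyte factor HNF1, on either strand.
Fga, chr3:83025903-83026152, plus strand: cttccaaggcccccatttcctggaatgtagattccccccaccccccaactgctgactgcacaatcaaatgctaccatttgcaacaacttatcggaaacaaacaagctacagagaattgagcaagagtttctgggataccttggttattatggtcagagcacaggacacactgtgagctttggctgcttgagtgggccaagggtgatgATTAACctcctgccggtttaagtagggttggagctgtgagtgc
Fgb, chr3:83049864-83050113, minus strand: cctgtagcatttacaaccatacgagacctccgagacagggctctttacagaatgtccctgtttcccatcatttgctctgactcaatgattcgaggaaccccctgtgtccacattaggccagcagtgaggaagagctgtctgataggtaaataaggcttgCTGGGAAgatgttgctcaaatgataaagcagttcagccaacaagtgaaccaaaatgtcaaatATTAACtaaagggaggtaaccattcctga
Fgg, chr3:83007474-83007723, plus strand: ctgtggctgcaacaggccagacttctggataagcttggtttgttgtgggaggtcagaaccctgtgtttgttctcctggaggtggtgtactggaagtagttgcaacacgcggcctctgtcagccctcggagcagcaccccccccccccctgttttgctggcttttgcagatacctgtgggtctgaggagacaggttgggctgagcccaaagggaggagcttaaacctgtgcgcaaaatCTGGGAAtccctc
CTGGGAA was found once in the Fgb window, with its first base 91 bases before the start, and once in the Fgg window, 13 bases before it, and not in the Fga window. GTTAAT was found in reverse orientation in the Fga and Fgb windows, 43 and 29 bases before the start. In GENCODE vM21 the Fga gene starts at 83026076, inside the Fga window, so by that annotation its GTTAAT match lies within the gene. Of 32851 promoter windows of the same length, 9.10% held CTGGGAA and 6.43% held GTTAAT. Among 26 windows of the 24 members with a RefSeq entry, 4 held CTGGGAA (those of F9, Fgb, Fgg and Tfpi) and 4 held GTTAAT (those of F13b, Fga, Fgb and Proz). The STAT-type palindrome TTCNNNGAA was in the windows of Fga, Fgb, F9 and Pros1 and in 7.02% of all windows. TTNNGNAA, a loose C/EBP-type pattern, was in 10 of the 26 windows and 36.9% of all windows. F9, which holds both CTGGGAA and TTCNNNGAA, was lower in IR livers. These are matches of letters and not measured sites.

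Clot cross-linking is done by factor XIII, whose 2 subunit genes changed in opposite directions. F13a1 encodes the catalytic A subunit, which macrophages and megakaryocytes make, and lies on chromosome 13 from 36867178 to 37050244. Its values ran from 14.7 over a median of 137 to 315 in IR livers, against 1.02, 4.44 and 6.58 in sham livers. The groups did not overlap, and the log2 fold change was 4.72 ± 0.45 (limma adjusted p = 1.04e-08), rank 43 of 12686 from the most raised gene. With a sham mean of 3.91, F13a1 passed the filter on low values, a mean of at least 10 normalized counts over 18 libraries, only through the IR group. Its log2 fold change ran from 3.82 to 5.26 under the alternative settings. F13b, the carrier B subunit secreted by hepatocytes, lies on chromosome 1 from 139501702 to 139523752. It had a lowest, median and highest value of 528, 774 and 1293 in IR livers, against 3943, 4829 and 5998 in sham livers (log2 fold change -2.59 ± 0.15, limma adjusted p = 7.98e-12). Every IR library lay below every sham library for F13b and above every sham library for F13a1.

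Thrombin and the factors that form it were lower or not called. F2, which encodes prothrombin, ran from 16666 over 18762 to 23790 in IR livers and from 15751 over 18089 to 19836 in sham livers. The groups overlapped and F2 was not called (log2 fold change 0.13 ± 0.09, limma adjusted p = 0.177). F5, the cofactor of factor Xa, had 1709, 2448 and 2897 in IR livers and 2398, 4145 and 4865 in sham livers, and fell by 0.76 on the log2 scale (SE 0.13, limma adjusted p = 2.24e-05). F7, which starts clotting with tissue factor, F10, whose product cuts prothrombin, and Proz, the cofactor of a factor Xa inhibitor, lie side by side on chromosome 8 from 13026034 to 13076026. F7 fell by 0.56 and Proz by 1.00 on the log2 scale (limma adjusted p = 0.000723 and 9.34e-05). F10, which lies between them, had a log2 fold change of -0.28 ± 0.15 and was not called (limma adjusted p = 0.0866), although it was called lower without IR1, IR3 or IR4 (adjusted p = 0.0271, 0.0476 and 0.0334) and with array weights. Proz ran from 917 over 1642 to 2821 in IR livers and from 2463 over 3302 to 4218 in sham livers, so the groups overlapped.

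The intrinsic pathway held the member with the deepest fall. F8 encodes factor VIII, the cofactor of factor IXa, which sinusoidal endothelial cells make in the liver, and lies on chromosome X from 75172715 to 75382615. It ran from 37.2 over a median of 59.5 to 83.2 normalized counts in IR livers, against 329, 462 and 524 in sham livers. The groups did not overlap, and F8 fell by 2.87 on the log2 scale (SE 0.13, limma adjusted p = 3.10e-13), rank 150 of 12686 from the most lowered gene. In bulk liver RNA, fewer cells of a type and less RNA per cell cannot be told apart. The endothelial marker list had 5 of 10 genes called lower and 3 called higher, against 37.7% and 38.3% of all genes tested. By calls alone, these counts were not far from the background. All 5 lower genes fell without overlap, against 20.3% of all genes tested. They were Clec4g, Fcgr2b, Oit3, Kdr and Erg, with log2 fold changes from -2.05 for Clec4g to -0.72 for Erg. Stab1, Lyve1 and Tie1 rose by 0.31, 0.55 and 0.50 on the log2 scale, with overlap, and Pecam1 and Cdh5 were not called. The summed level of the list was 2468 to 4022 in IR livers and 3878 to 5548 in sham livers. The part of these differences in the F8 result was not tested. Vwf, which encodes the endothelial and platelet protein that carries factor VIII in plasma, went the other way. It ran from 92.0 over 149 to 238 in IR livers, against 36.2, 55.5 and 66.3 in sham livers, without overlap (log2 fold change 1.48 ± 0.16, limma adjusted p = 3.98e-08). The log2 ratio of F8 over Vwf differed by -4.35 between IR and sham livers (exact permutation test, adjusted p = 5.14e-05), with values of -2.65 to -0.75 in IR livers and 2.38 to 3.79 in sham livers.

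F9, the protease that works with factor VIII and is made by hepatocytes, had a lowest, median and highest value of 762, 1291 and 1651 in IR livers, against 2340, 3008 and 3485 in sham livers. It fell by 1.27 on the log2 scale (SE 0.13, limma adjusted p = 3.34e-08), without overlap. Kng1 encodes kininogen, the cofactor of contact activation and the source of bradykinin. It had 13176, 19984 and 26976 in IR livers and 28100, 39609 and 43706 in sham livers, and fell by 0.92 on the log2 scale (limma adjusted p = 2.54e-06). F12, the contact factor that starts the intrinsic pathway, rose. Its range was 5617 to 9157 with a median of 6591 in IR livers, against 3805 to 4929 with a median of 4432 in sham livers (log2 fold change 0.63 ± 0.09, limma adjusted p = 2.60e-06). F11, the protease downstream of factor XII, was not called (log2 fold change -0.32 ± 0.15, limma adjusted p = 0.0615). The lowest sham value of F11, 451 in W8, lay under the whole IR range of 602 to 974, and without W8 the log2 fold change was -0.44 and called (adjusted p = 0.00118). It was also called without IR3, with array weights, by edgeR and by DESeq2.

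**Figure D3:**
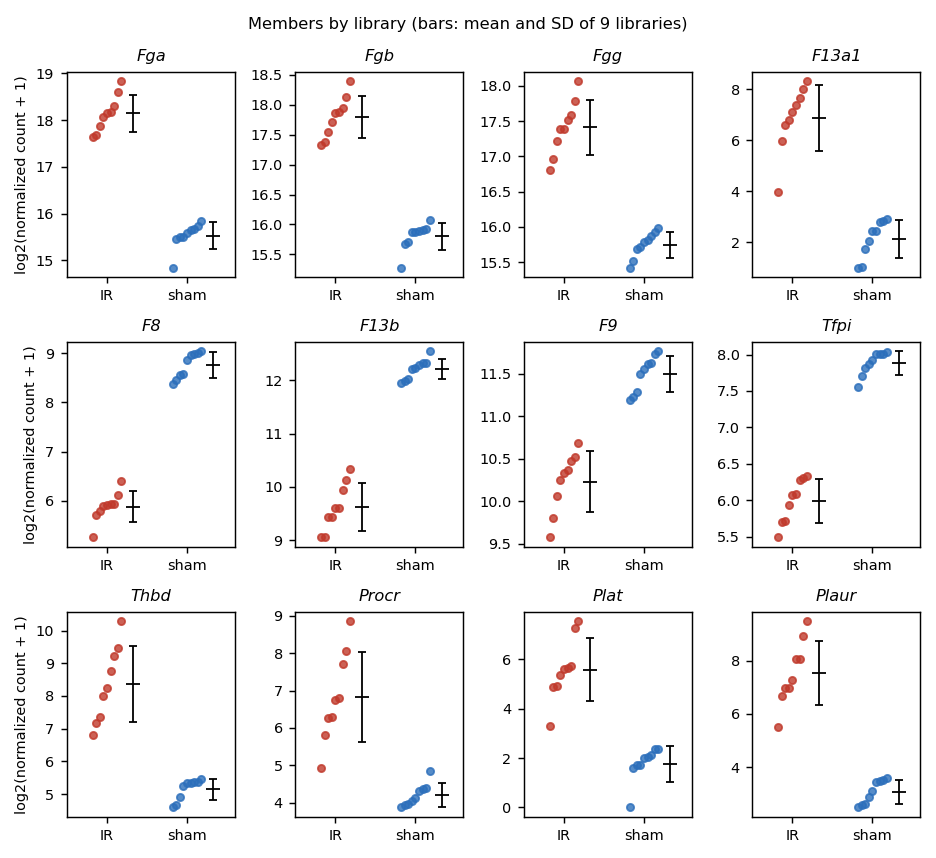
Log2(normalized count + 1) of 12 members in each library, IR left of sham, points sorted from low to high within a group. Horizontal bars and whiskers give the mean and SD of 9 libraries. The 12 shown are all among the members whose groups did not overlap, of which 10 were higher and 6 lower in IR livers. In the other members the groups overlapped. Of all genes tested, 19.9% were higher and 20.3% lower without overlap.

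Tissue factor and its inhibitor both fell, and unequally. F3 encodes tissue factor, the membrane protein that starts clotting outside vessels. It had the values 45.0, 21.7, 29.4, 14.3, 70.2, 26.6, 43.0, 67.0 and 31.8 in the libraries IR1 to IR9, against a lowest, median and highest value of 51.8, 64.0 and 75.3 in sham livers. Most IR livers lay below the sham range, but IR5 and IR8 lay within it. F3 fell by 0.88 on the log2 scale (SE 0.23, limma adjusted p = 0.00187). Tfpi encodes the inhibitor of the complex of tissue factor and factor VIIa, and lies on chromosome 2 from 84432855 to 84476775. Its values were 43.9, 66.1 and 79.3 in IR livers and 188, 242 and 262 in sham livers, a fall of 1.89 on the log2 scale (SE 0.12, limma adjusted p = 1.41e-11). The log2 ratio of F3 over Tfpi was -0.83 ± 0.80 in IR livers and -1.85 ± 0.09 in sham livers (SD, n = 9 each), so the difference was 1.01 (exact permutation test, adjusted p = 0.000183).

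Among the anticoagulant genes the membrane receptors rose and most of the plasma inhibitors fell. Thbd encodes thrombomodulin, the endothelial receptor that turns thrombin towards protein C, and lies on chromosome 2 from 148404466 to 148408188. It ran from 112 over a median of 304 to 1249 in IR livers, against 23.1, 39.2 and 42.6 in sham livers (log2 fold change 3.23 ± 0.36, limma adjusted p = 8.79e-08). Procr, the endothelial protein C receptor, lies on chromosome 2 from 155751117 to 155755471. Its lowest, median and highest values were 29.4, 106 and 463 in IR livers and 13.6, 16.3 and 28.0 in sham livers (log2 fold change 2.63 ± 0.38, limma adjusted p = 2.72e-06). Neither gene overlapped between the surgeries, and for Procr the gap was small, 29.4 in the lowest IR library against 28.0 in the highest sham library. Thbd rose by more than Procr, by 0.61 in their log2 ratio (exact permutation test, adjusted p = 0.0139). Proc, the zymogen that both receptors serve, fell by 0.25 on the log2 scale (SE 0.09, limma adjusted p = 0.0206), a call that was lost when no filter on low values was used (adjusted p = 0.0505). Pros1, which encodes the protein C cofactor protein S, had 576 to 1033 in IR livers and 609 to 915 in sham livers (log2 fold change 0.01 ± 0.11, limma adjusted p = 0.958). That value is not called, and its 95% interval ran from -0.23 to 0.24.

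Serpinc1 encodes antithrombin, the main plasma inhibitor of thrombin and factor Xa. It ran from 13157 over 16562 to 21322 in IR livers and from 20061 over 22980 to 25413 in sham livers, and fell by 0.46 on the log2 scale (SE 0.11, limma adjusted p = 0.000615). In GENCODE vM21 its exons overlap those of Zbtb37 on the opposite strand, and those of Fgg, F5 and Plg also overlap counted genes of the opposite strand. No source used here says whether counting used strand, so reads of such partners cannot be told apart. Relative to F2, Serpinc1 was lower in IR livers, with a difference of 0.59 in the log2 ratio of F2 over Serpinc1 (exact permutation test, adjusted p = 5.14e-05). Serpind1, the thrombin inhibitor heparin cofactor II, had 926, 2031 and 3209 in IR livers and 4120, 6633 and 8219 in sham livers. It fell by 1.75 on the log2 scale (SE 0.19, limma adjusted p = 7.11e-08), without overlap. Serpina10 encodes the protein Z-dependent inhibitor of factor Xa and rose, while its cofactor gene Proz fell. Serpina10 had the values 10118, 7683, 7739, 11723, 4540, 7568, 5599, 2860 and 2582 in IR1 to IR9, against 2354, 3168 and 3946 as the lowest, median and highest sham values. IR8 and IR9 lay within the sham range and the other IR livers above it (log2 fold change 0.93 ± 0.24, limma adjusted p = 0.00160).

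In the fibrinolytic system Plat and Plaur, both low in sham livers, rose, and Plau was not called. Plat encodes tissue plasminogen activator and lies on chromosome 8 from 22757727 to 22782844. It had 8.81, 47.8 and 186 in IR livers, against 0, 2.97 and 4.20 in sham livers (log2 fold change 3.82 ± 0.45, limma adjusted p = 1.86e-07). Plaur, the receptor that holds urokinase on the cell surface, lies on chromosome 7 from 24462484 to 24475968. It ran from 45.0 over 154 to 714 in IR livers, against 4.62, 7.68 and 11.2 in sham livers (log2 fold change 4.46 ± 0.39, limma adjusted p = 2.60e-09). Plau, which encodes urokinase itself, ranged from 13.6 to 37.2 in IR livers and from 11.1 to 29.0 in sham livers (log2 fold change 0.10 ± 0.20, limma adjusted p = 0.668). The log2 ratio of Plau over Plaur was -3.02 ± 0.97 in IR livers and 1.34 ± 0.65 in sham livers (SD, n = 9 each; exact permutation test, adjusted p = 5.14e-05). F13a1, Plat and Plaur averaged under 10 normalized counts in sham livers and so passed the filter on low values through the IR group. Their fold changes are on the log2(normalized count + 1) scale, which understates changes of low genes. Without these 3 genes, 10 members were higher and 13 lower.

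Plg, the plasminogen gene, ran from 16905 over 28440 to 41653 in IR livers and from 17018 over 20986 to 21996 in sham livers. It rose by 0.44 ± 0.16 on the log2 scale (limma adjusted p = 0.0169), and with no filter on low values it was no longer called (adjusted p = 0.0522). Serpinf2, which encodes the plasmin inhibitor alpha-2-antiplasmin, rose by 0.46 ± 0.15 (limma adjusted p = 0.00964), with 8201, 13551 and 17690 in IR livers and 6332, 9841 and 10847 in sham livers. Cpb2, the carboxypeptidase that protects fibrin from plasmin, fell by 0.49 on the log2 scale (SE 0.19, limma adjusted p = 0.0228), with 2604, 5466 and 8803 in IR livers and 6149, 7620 and 8473 in sham livers. Its call was lost with edgeR (adjusted p = 0.0510) and without IR8 and W8 (adjusted p = 0.0688). F2r, the thrombin receptor PAR1, ran from 158 to 482 in IR livers and from 171 to 323 in sham livers and was not called (log2 fold change 0.37 ± 0.20, limma adjusted p = 0.0998). F2r was called higher by edgeR and DESeq2 (adjusted p = 0.0485 and 0.0334) and without IR3, IR6 or IR9.

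**Figure D4:**
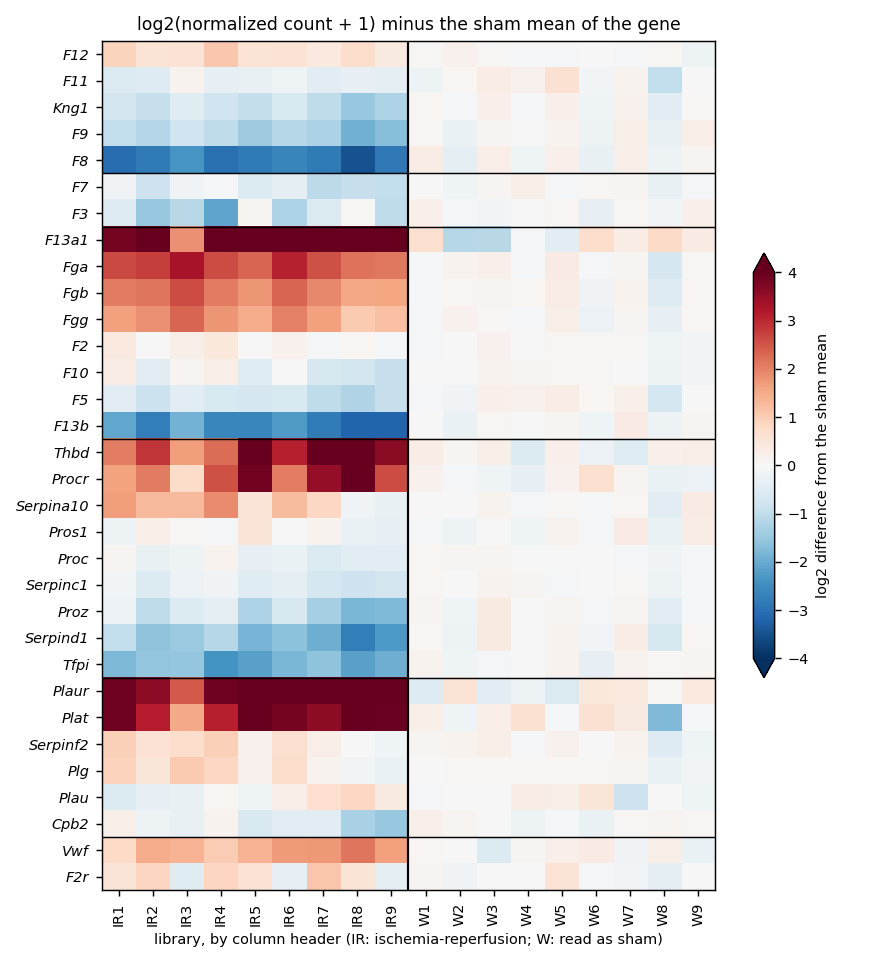
Log2(normalized count + 1) of each member in each library minus the mean of the sham libraries, with IR libraries left of sham libraries and members ordered by role. Colours are capped at 4 in both directions. F13a1, Thbd, Procr, Plaur and Plat are highest in IR5 or IR8 and lowest in IR3, while the fibrinogen chains are highest in IR3.

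The IR livers differed from one another more than the sham livers did. The SD on the log2 scale was larger in the IR group for 30 of 32 members, or 93.8%, against 75.5% of all genes tested. Its median over the members was 0.40 in IR livers and 0.22 in sham livers, and over all genes tested 0.33 in IR livers and 0.22 in sham livers. F5 and F11 were the members with the larger SD in sham livers. Plat, Plaur, Procr, Thbd and F13a1 had SDs of 1.16 to 1.30 in IR livers. All of these 5 genes were lowest in IR3, and 4 of them were highest in IR8, with Plat highest in IR5. Thbd, for example, had 112 in IR3, 702 in IR7 and 1249 in IR8, and Plaur had 45.0, 267 and 714 in these libraries. Among IR livers, IR3 had the highest value of 10 members, which were Fga, Fgb, Fgg, Kng1, F11, F9, F8, F13b, Tfpi and Plg. IR8 and IR9 were the lowest IR library for 9 members each. The summed level of the neutrophil markers was lowest in IR3, with 364, and highest in IR8, with 4798. Erythroid markers had the same extremes, with 142 in IR3 and 2994 in IR8. The cholangiocyte sum was lowest in IR3, with 850, and highest in IR5, with 14613. Most of that sum was Spp1, with 555 in IR3 and 11989 in IR5. Sox9 and Epcam had the same extremes as Spp1, whereas Krt19 and Krt7 were lowest in IR7 and highest in IR8. Endothelial, platelet and stellate markers were also highest in IR8, with sums of 4022, 432 and 4859, while their lowest sums were in IR1, IR1 and IR4. Other sums had another order. The Kupffer and monocyte sums were highest in IR3, with 5526 and 52606, and lowest in IR4 and IR9. The monocyte sum was mostly Fn1, with 52364 in IR3, and the other monocyte markers were not highest there. Ccr2, Chil3, Vcan and Plac8 were lowest in IR3, and Ly6c2 and Itgam in IR1. Chil3, Vcan and Itgam were highest in IR8, Ly6c2 and Plac8 in IR5, and Ccr2 in IR7. Hepatocyte markers were highest in IR6, with 925211, and lowest in IR4. Whether genotype accompanies this order cannot be told from the headers, and the part of these cell types in it was not tested. Among sham livers, W8 was the lowest library for 20 of 32 members.

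**Figure D5:**
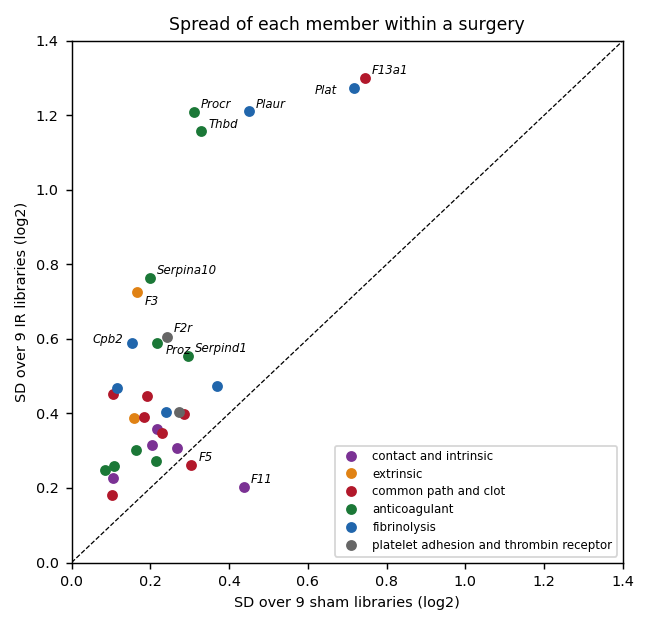
SD of log2(normalized count + 1) over 9 IR libraries (y axis) against that over 9 sham libraries (x axis), 1 point per member, coloured by role. The dashed line marks equal spread, and 30 of 32 members lie above it.

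Cell type markers moved with surgery too. The counts of called markers below stand against 38.3% of all genes tested called higher and 37.7% called lower. With lists this short, counts near those shares say little about a cell type. All 9 neutrophil markers tested were higher in IR livers. Of these, 6 averaged under 10 normalized counts in sham livers and passed the filter only through the IR group, so this count is no independent support. The sum of the 10 in the table was 364 to 4798 in IR livers and 58.0 to 136 in sham livers, where Ly6g and Il1r2 had a median of 0. Of 9 hepatocyte markers, 7 were lower and 1 higher, and their sum was 557618 to 925211 in IR livers and 1966370 to 2379030 in sham livers. Most of that sum was Alb, with a median of 495179 in IR livers and 1796770 in sham livers. For 9 Kupffer cell markers, 8 were lower and 1 higher, with sums of 3308 to 5526 in IR livers and 7591 to 10659 in sham livers. Of 7 monocyte markers, 5 were higher and 1 lower, and 3 averaged under 10 normalized counts in sham livers and passed the filter through the IR group. The sum of the 7 was 22688 to 52606 in IR livers and 7721 to 11882 in sham livers. Most of it was Fn1, which hepatocytes also make. Platelet and megakaryocyte markers, 4 of 10 tested, had 2 higher and 1 lower, with sums of 162 to 432 in IR livers and 297 to 422 in sham livers, and Gp6 had a median of 0 in both. Clec1b, the 1 called lower, had a median of 88.2 in IR livers and 271 in sham livers. The sums had medians of 232 and 363, so the sham sum was largely Clec1b. Pf4 and Itga2b rose by 0.80 and 0.81 on the log2 scale, and Ppbp was not called. Cholangiocyte markers had 4 of 5 tested higher, with sums of 850 to 14613 in IR livers and 373 to 745 in sham livers. Spp1 made up most of these sums, with a median of 3005 in IR livers and 373 in sham livers, and Krt7 was not called. Stellate markers had 6 higher and 4 lower of 10, with sums of 3181 to 4859 in IR livers and 4286 to 5405 in sham livers. Dcn, called lower, had medians of 1265 in IR livers and 2646 in sham livers, where the sums had medians of 3700 and 5026. Of 4 erythroid markers tested, 1 was lower, with sums of 142 to 2994 in IR livers and 511 to 2908 in sham livers. The part of these shifts in the results for the members was not tested.

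Other genes of the pathway were taken from a list, of which 33 are reported. Of these, 28 passed the filter, and 11 rose and 9 fell, or 39.3% and 32.1%. Over all genes tested 38.3% were called higher and 37.7% lower, so these shares were near the background. The median log2 fold change of the 28 was 0.02. A2m, the broad protease inhibitor alpha-2-macroglobulin, had 43.8, 514 and 1264 in IR livers and 0, 1.04 and 4.44 in sham livers (log2 fold change 7.87 ± 0.50, limma adjusted p = 2.71e-11). Like F13a1, Plat and Plaur, it passed the filter through the IR group, and its fold change depends on the pseudocount. Anxa2 and S100a10, whose products form a plasminogen-binding complex on cell surfaces, rose by 2.95 and 1.23 on the log2 scale (limma adjusted p = 1.26e-07 and 6.93e-05). Nos3 and Ptgis, which make the platelet inhibitors nitric oxide and prostacyclin, rose by 1.98 and 1.18 (limma adjusted p = 1.69e-05 and 0.00111). The thrombin inhibitor gene Serpine2, the vitamin K-dependent ligand gene Gas6 and the clearance receptor gene Lrp1 rose by 1.28, 1.47 and 1.23 (limma adjusted p = 0.000664, 1.87e-07 and 1.65e-06). Tfpi2, a Kunitz-type protease inhibitor gene, fell by 1.39, and Vkorc1, whose enzyme recycles vitamin K for the clotting factors, fell by 1.04 (limma adjusted p = 5.74e-08 and 6.68e-05).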

How the data were processed

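RNA from mouse liver was extracted with Trizol and made into libraries with a NEBNext Ultra kit, per the labels' protocols. The deposited values are a signal per gene, namely read counts scaled by the authors with 1 size factor per library, as the name of the deposited table and its values show. Trimmomatic 0.33, STAR 2.5.0a, DESeq2 1.14 and GRCm38 are named in the submitters' processing notes. The sources used here name no read counter, strand setting or annotation. Every value (100%) was a whole multiple of the smallest value above 0 in its column (tolerance 0.001 reads), which gave back whole reads.

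Columns were grouped by header, 9 IR and 9 W, with W read as sham. Rows were named with GENCODE vM21 (47310 of 47729 rows). Genes with a mean of at least 10 normalized counts over 18 libraries were tested on log2(normalized count + 1) with limma 3.58.1 (trend, R 4.3.3), with Benjamini-Hochberg adjustment over all 12686 genes and a call at an adjusted p under 0.05. Intervals are 95%. Ratios of 2 genes were compared by two-sided exact permutation tests in Python 3.11.15. Per-kilobase levels used the longest principal transcript. Alternatives were edgeR 4.0.16 and DESeq2 1.42.0 on recovered reads, other pseudocounts, filters and scalings, array weights, a block by header number and leaving out libraries. The fit was tested on simulated data. No 2 libraries of a group were alike within sampling noise (chi-square per degree of freedom 7.86 or more). All members were named. Those called with a log2 fold change of at least 0.58 in size were given in full, and other pathway genes were named if called at 1 or more. A gene of that list and its ratio, 1 of the 10 pairs, are not reported here. The members and lists were chosen with earlier results of these data known. The header numbers were not taken as pairs, since the labels do not tie them to samples.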

Additional observations from a re-analysis of the deposited data

Results flagged for a closer look

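Each of 32 members was examined in both groups for a library whose gap to its nearest neighbour exceeded the 95% critical share of the range of its 9 values (Dixon's ratio). Of these 64 groups, 3 had such a library, where chance gives about 1 in 20. Fga was 29392 in the sham library W8, with 44648 as the next lowest value. Procr was 28.0 in the sham library W6, with 19.8 as the next highest. F2r was 323 in the sham library W5, with 237 as the next highest.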

How the results depend on the processing

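Of the 32 members, 24 kept their direction and their side of the threshold under all 29 alternatives each, and the 10 gene ratios did so under theirs. Leaving out 1 library at a time gave 13 to 14 members higher and 13 to 15 lower, and 4744 to 4860 genes higher and 4686 to 4811 lower over all genes. Pros1, not called, changed sign to -0.01 with TMM factors and ranged from -0.06 to 0.05 as single libraries were left out, and Plau, not called, from -0.01 to 0.18. Calls of Cpb2, Plg and Proc were lost and calls of F10, F11 and F2r gained under alternatives given with those genes, and the cause was not tested. Leaving out IR8 and W8, and leaving out the members low in sham, were chosen after seeing the data. A replicate block by header number gave 13 members higher and 14 lower, and 4821 genes higher and 4751 lower. Under that block F11 gained a call (adjusted p = 0.0450), and no other member changed its call. Libraries of equal header number were not related beyond their surgery (r of deviations -0.0983 to 0.125), and for 0 of 9 IR libraries was the W library of the same number the best match. Low reads limit Plat, F13a1 and Plaur in sham livers.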

Other observations

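Other liver-made relatives of the clotting proteins also changed. Fgl1, a fibrinogen-like protein of hepatocytes, ran from 10440 over 25042 to 34834 normalized counts in IR livers, against 5879, 10922 and 12476 in sham livers (log2 fold change 0.97 ± 0.22, limma adjusted p = 0.000594). Kng2, the second kininogen gene of the mouse, fell by 0.58 on the log2 scale (limma adjusted p = 3.58e-05), beside the fall of Kng1. Hrg, which encodes the plasma protein histidine-rich glycoprotein, rose by 0.46 ± 0.12 (limma adjusted p = 0.00150). Asgr1 and Asgr2, the subunits of the hepatocyte receptor that clears glycoproteins with exposed galactose, fell by 0.74 and 0.73 (limma adjusted p = 1.97e-05 and 1.98e-05). The 3 genes Ggcx, Lman1 and Mcfd2, which help to modify or export clotting factors, were not called, unlike Vkorc1, with log2 fold changes of 0.05 for Ggcx, the vitamin K-dependent carboxylase, -0.18 for Lman1 and 0.04 for Mcfd2 (limma adjusted p = 0.778, 0.131 and 0.777). Mitochondrial transcripts took 2.94% to 3.82% of normalized counts in IR libraries and 3.61% to 5.63% in sham libraries.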
